A study of Mus musculus with 12 samples.

Results

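The pancreatic cancer cells that carried mutant p53 from their tumor of origin (mt-CCs) were compared with p53-null cancer cells to which a mutant p53 had been added by transfection (fl-CCs + p53 R175H). The members were taken from the array titles, and they are 3 arrays of mt-CCs and 3 arrays of fl-CCs + p53 R175H, 6 of the 12 arrays of the series. The mt-CCs came from a Pdx1-Cre driven mouse tumor with a conditional oncogenic Ras allele and 1 Trp53 R172H allele. The fl-CCs came from a tumor of the same Ras model with a floxed Trp53 allele, are labeled p53 null, and received a human p53 with the R175H change. Mouse R172H and human R175H are the equivalent hotspot change in the DNA-binding domain. The other 6 arrays, 3 of untransfected fl-CCs and 3 of fl-CCs with empty vector (fl-CCs + EV), serve here as the reference for the parent line. The medium of the EV and R175H cells held the selection drug G418 and that of mt-CCs did not. Each genotype is represented by 1 cell line. Line of origin, the species and dose of p53, selection and p53 setting therefore cannot be told apart. The paper describes the 3 arrays of a group as biological triplicates, without saying how the cultures were kept apart. The p-values measure the spread between such arrays of 1 line per group, and not between lines or tumors.

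The tumor suppressor p53 is a transcription factor that arrests or kills damaged cells. Hotspot mutants lose binding to the normal target genes, and some gain other effects on transcription through partner factors, among them genes of the mevalonate pathway, growth factor receptors and NFκB targets. Pancreatic cancer cells range from epithelial cells, with E-cadherin, desmosomes and keratins, to mesenchymal cells, in which repressors of the Snail, Zeb and Twist families lower the epithelial genes.

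Levels are log2 values from Affymetrix mouse arrays, where a difference of 1 is a 2-fold change, and values under 5 are called near background. Differences are mt-CCs minus fl-CCs + p53 R175H unless another pair is named. A probe set or gene is called when its adjusted p, from limma's test over all 12 arrays with the Benjamini-Hochberg method, is at most 0.05. RMA gave all arrays nearly the same distribution, with a median of 5.59 and at least 25693 of 45037 probe sets over 5 on each, so that a difference is relative to the other genes of an array and the small number of arrays limits the precision. Trp53 itself was not analysed here.

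The lines with endogenous and with transfected mutant p53 differed at a large share of the transcriptome. Of 45037 probe sets, 14911 were called (33.1%), 7590 of them higher and 7321 lower in mt-CCs. With a difference of at least 1 in addition, 1899 were higher and 1971 lower. By genes, 4383 of 18193 were higher (24.1%) and 4206 lower (23.1%), 47.2% in all, and the median difference over all genes was 0.01. The 3 arrays of one group and the 3 of the other did not overlap in 58.8% of genes. Among the 12129 genes with at least 1 of the 2 group means at 5 or more, 64.5% were called, which is the share to set beside a list of expressed genes. For the comparisons with fl-CCs and fl-CCs + EV only shares of all genes are given. These include the 6064 genes near background in both mutant groups, and are not a like reference for a list of expressed genes.

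**Figure D1:**
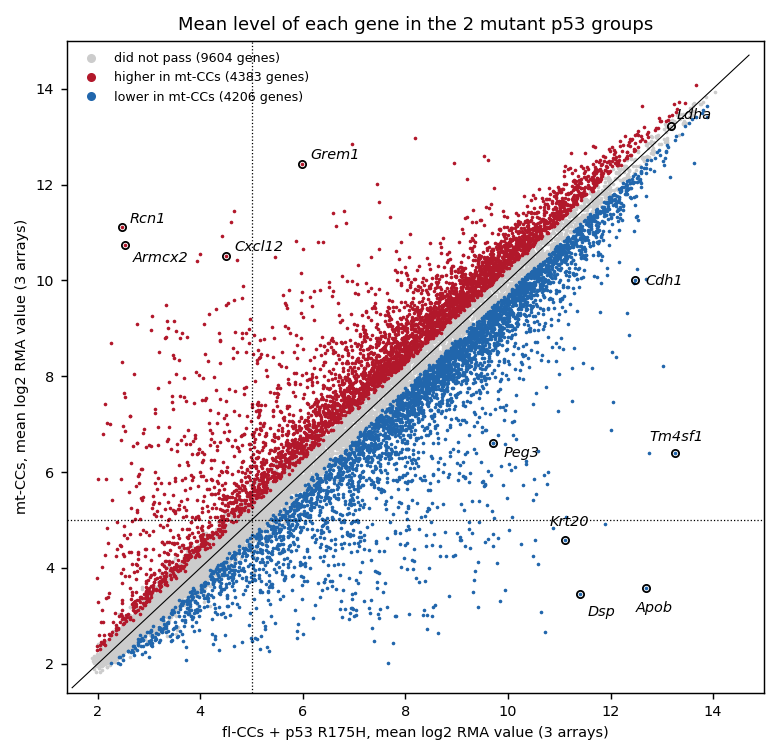
Each point is 1 gene, with its mean log2 RMA value over 3 arrays of fl-CCs + p53 R175H on the horizontal axis and over 3 arrays of mt-CCs on the vertical axis, and dotted lines mark the near-background level of 5. Red and blue points passed the test, 4383 above and 4206 below the diagonal. Of the genes farthest from it, Rcn1, Armcx2 and Cxcl12 at the top left were near background in fl-CCs + p53 R175H, and Dsp, Krt20 and Apob at the bottom right in mt-CCs.

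Set against the parent line, the transfected cells lay close to fl-CCs. Across probe sets, arrays of mt-CCs and of fl-CCs + p53 R175H correlated at 0.961 to 0.962, whereas arrays of fl-CCs + p53 R175H correlated at 0.986 to 0.990 with fl-CCs and at 0.983 to 0.984 with fl-CCs + EV. Replicate arrays of either mutant group correlated at 0.994 to 0.996. These are correlations across probe sets, which are not independent replicates and share 1 normalization, and they are given as a description. The counts of called probe sets were 13812 (30.7%) for mt-CCs against fl-CCs, 14849 (33%) for mt-CCs against fl-CCs + EV, 6762 (15%) for fl-CCs + p53 R175H against fl-CCs, and 9163 (20.3%) for fl-CCs + p53 R175H against fl-CCs + EV. Cells with empty vector alone differed from fl-CCs at 5452 probe sets (12.1%). All of these comparisons share arrays.

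Most called probe sets set mt-CCs apart from the whole parent line. In 9211 of the 14911 called probe sets, the 3 arrays of mt-CCs lay outside the range of all 9 fl-CC-derived arrays, 4726 above and 4485 below. The same held for 23.2% of all probe sets tested. That share is not a neutral reference, since the 9 arrays include the 3 of fl-CCs + p53 R175H. In 98.1% of called probe sets the 2 mutant groups did not overlap. In 3915 called probe sets the 3 arrays of fl-CCs + p53 R175H lay outside the range of the other 9 arrays, 2080 above and 1835 below. This held for 10.4% of all probe sets, a share with the same limit. Both held in 1439 and neither in 3224.

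Many other transcripts differed little between the mutant lines. Of 24419 probe sets with both means at 5 or more, 9499 (38.9%) had a 95% interval of the difference that lay within 0.5 of 0 on the log2 scale, and 11567 (47.4%) were called. These sets overlap, since 732 probe sets were both called and that close, and 4085 were neither. Among the listed genes with the narrowest intervals were the ribosomal protein gene Rpl4, the lactate dehydrogenase gene Ldha and the hexokinase gene Hk2. Ldha was at 13.21, 13.24 and 13.19 in mt-CCs and at 13.26, 13.15 and 13.13 in fl-CCs + p53 R175H, and the groups overlapped. Hk2 was at 10.36, 10.40 and 10.48 and at 10.53, 10.36 and 10.39, a difference of -0.01. Srebf1, a master regulator of lipid synthesis, was at 9.20, 9.24 and 9.23 and at 9.21, 9.20 and 9.21, and the apoptosis-related Phlda1 at 11.34 and 11.32 on average.

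**Figure D2:**
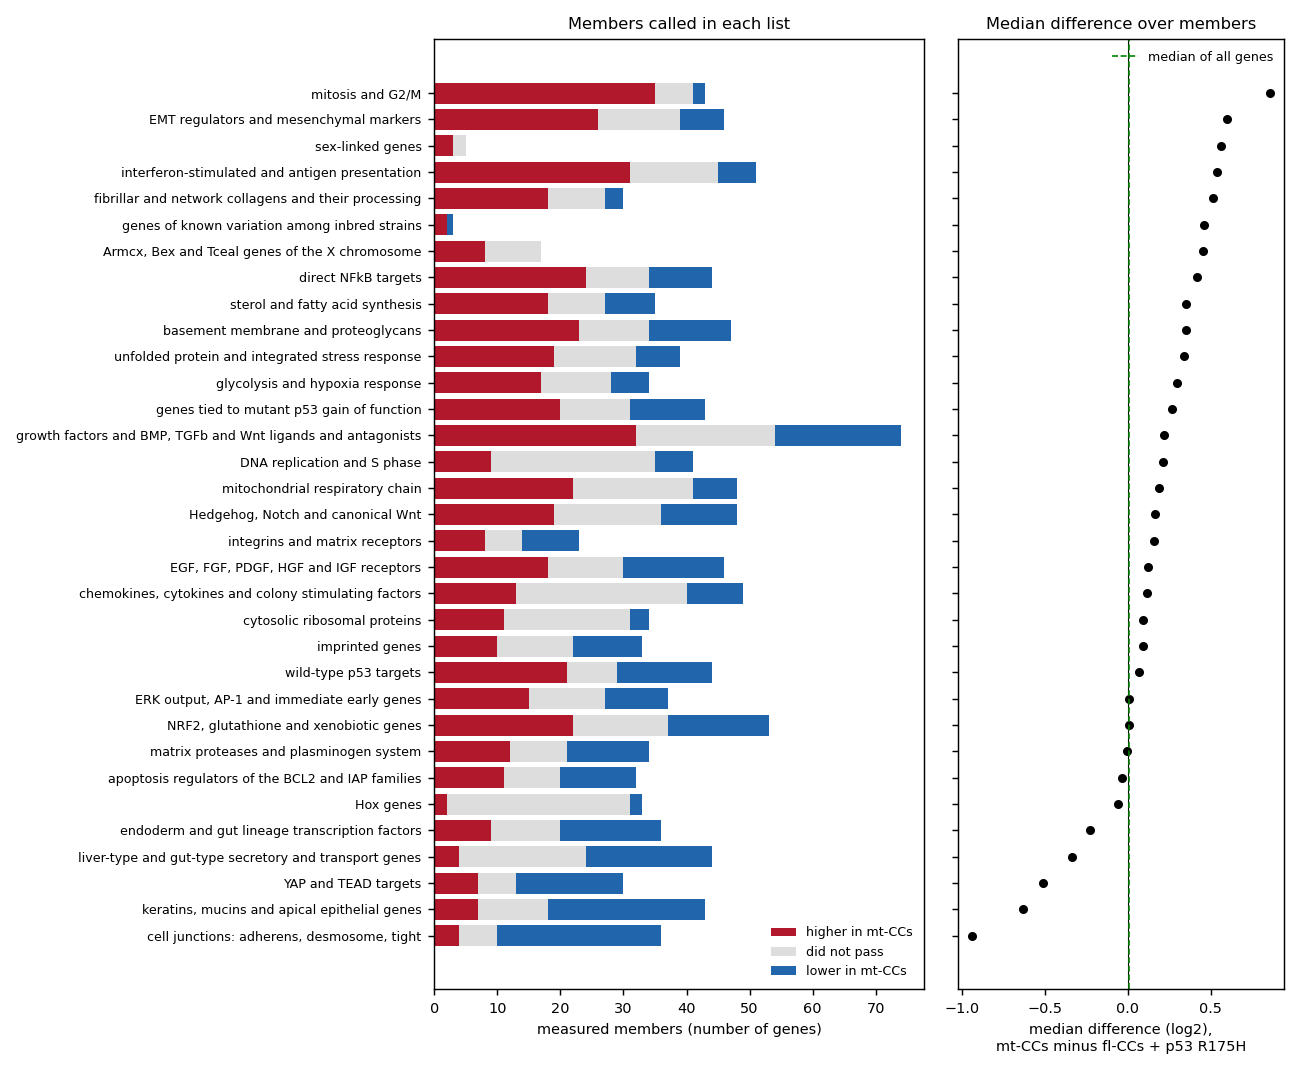
For each of 33 gene lists, the left panel gives the number of measured members that were higher in mt-CCs, did not pass, or were lower in mt-CCs, and the right panel the median log2 difference over the members, with the median of all genes as a dashed line. The lists of mitosis (0.85) and of mesenchymal genes (0.60) have the highest medians, and the list of cell junctions (-0.94) the lowest.

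Epithelial junction genes were lower in the mt-CCs. Of 36 measured genes of adherens junctions, desmosomes and tight junctions, 26 were lower and 4 higher, 5 of these calls with both groups near background, and the median difference was -0.94 against 0.01 for all genes. Desmoplakin (Dsp), which ties keratin filaments to desmosomes, was at 4.03, 3.0 and 3.32 in mt-CCs and at 11.59, 11.31 and 11.30 in fl-CCs + p53 R175H. The 3 arrays of mt-CCs were near background and all others high, a difference of at least 6.40 (adjusted p = 5.15e-11). E-cadherin (Cdh1), the adhesion molecule of adherens junctions, was at 10.00, 10.13 and 9.90 and at 12.46, 12.41 and 12.58. It was thus still well above background in mt-CCs, with a difference of -2.47 ± 0.09 (SE, adjusted p = 7.01e-10). The tricellular junction gene Marveld2 was near background in mt-CCs, at least 3.67 lower, and the polarity gene Crb3 was at 6.58 ± 0.38 in mt-CCs and 9.94 ± 0.25 in fl-CCs + p53 R175H (mean ± SD, n = 3). Against the direction of the list, the connexin gene Gja1 was higher in mt-CCs by 2.31 and the claudin gene Cldn3 by 0.99. Dsp, Marveld2 and Crb3 did not differ detectably between fl-CCs + p53 R175H and fl-CCs (adjusted p = 0.989, 0.948 and 0.829).

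Keratins, mucins and apical genes followed the same direction, with 25 of 43 lower, 7 higher and a median of -0.63. Krt20, a keratin of gut-type epithelium, was at 4.65, 4.31 and 4.77 in mt-CCs and at 11.08, 11.12 and 11.13 in fl-CCs + p53 R175H. All 3 arrays of mt-CCs were near background, a difference of at least 6.11. The membrane mucin Muc1 was at 5.44, 5.86 and 5.93 and at 10.63, 10.81 and 10.84, a difference of -5.02 ± 0.12 (adjusted p = 3.75e-11). Plac8 was lower by 4.80 on the log2 scale, and the ductal keratin gene Krt7 had means of 8.52 and 12.02. The broad simple-epithelial keratins moved little. Krt8 differed by -0.32, Krt18 by -0.26 and Krt19 by 0.44, all called and all with means over 12 in both groups. The call of Krt18 was lost without mt-CCs replicate 3 (adjusted p = 0.0678), without fl-CCs + p53 R175H replicate 1 (0.0595) and without its replicate 2 (0.0533). The adhesion molecule Ceacam1 went the other way, from near background in fl-CCs + p53 R175H to 10.93 in mt-CCs, and all 8 of its probe sets were higher.

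The promoters of these epithelial genes are shown because Snail and Zeb factors bind the E-box CAGGTG. The motif was searched on both strands in the 250 bases before the annotated start, in the RefSeq table of GRCm38.p6. A gene with several windows was counted when any of them held the motif, and no window was available for Cdh1. The motif was held by 10 of 23 junction genes and 14 of 28 keratin, mucin and apical genes that the table covers. Of all 27025 genes in the table, 19.4% held it, and of the other lists searched 9 of 26 endoderm factors, 10 of 40 liver-type genes, 7 of 38 NFκB targets, 3 of 29 sterol genes and 3 of 30 mesenchymal genes. Of the 4 promoters taken by the naming rule, those of Dsp, Krt20 and Plac8 held no match and that of Muc1 held 2. Crb3, Epcam and Spint2 were added after the matches were seen. Crb3 has 2 windows, and the one printed was chosen because it held matches. The windows are 5′ to 3′ on the strand of the gene, with the motif or its reverse complement CACCTG in capitals, for Muc1 (chr3:89228806-89229055, plus strand), Crb3 (chr17:57061951-57062200, plus strand), Epcam (chr17:87635729-87635978, plus strand), Spint2 (chr7:29281978-29282227, minus strand) and, as a window with no match, Dsp (chr13:38151044-38151293, plus strand).
Muc1: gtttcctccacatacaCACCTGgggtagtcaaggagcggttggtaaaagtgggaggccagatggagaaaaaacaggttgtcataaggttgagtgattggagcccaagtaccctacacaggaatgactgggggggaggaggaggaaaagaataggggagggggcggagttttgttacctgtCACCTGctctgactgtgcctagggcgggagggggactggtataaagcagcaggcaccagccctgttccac
Crb3: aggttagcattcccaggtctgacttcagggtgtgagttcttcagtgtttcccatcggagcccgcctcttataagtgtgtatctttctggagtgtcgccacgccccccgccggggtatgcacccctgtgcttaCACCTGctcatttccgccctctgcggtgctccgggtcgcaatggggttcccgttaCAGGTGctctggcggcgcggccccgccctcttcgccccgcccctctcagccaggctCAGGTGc
Epcam: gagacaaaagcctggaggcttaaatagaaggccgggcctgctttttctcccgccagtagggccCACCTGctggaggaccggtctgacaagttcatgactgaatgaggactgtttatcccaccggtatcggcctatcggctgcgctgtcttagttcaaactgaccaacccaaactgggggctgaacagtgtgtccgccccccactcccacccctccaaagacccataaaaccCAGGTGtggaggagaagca
Spint2: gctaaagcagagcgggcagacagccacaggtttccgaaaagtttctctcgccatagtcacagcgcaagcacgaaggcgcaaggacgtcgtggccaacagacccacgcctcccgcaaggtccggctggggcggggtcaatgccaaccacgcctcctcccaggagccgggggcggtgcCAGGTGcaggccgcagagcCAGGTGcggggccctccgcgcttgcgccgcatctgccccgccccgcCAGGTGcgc
Dsp: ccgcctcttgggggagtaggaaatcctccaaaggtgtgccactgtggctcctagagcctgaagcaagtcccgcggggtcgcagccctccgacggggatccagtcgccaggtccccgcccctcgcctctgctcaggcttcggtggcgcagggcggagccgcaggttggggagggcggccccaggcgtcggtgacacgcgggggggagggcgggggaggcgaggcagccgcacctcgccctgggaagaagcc

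Beside these windows, the levels were as follows. Epcam, an epithelial adhesion molecule, was at 7.03, 6.81 and 6.79 in mt-CCs and at 9.39, 9.68 and 9.63 in fl-CCs + p53 R175H. Spint2, an inhibitor of membrane serine proteases, was at 8.84, 8.80 and 8.85 and at 10.69, 10.71 and 10.93. Both groups of values lay well apart, with differences of -2.69 and -1.95. A match is a description of the letters and not of binding.

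Mesenchymal genes were higher in the mt-CCs. Of 46 measured regulators and markers of epithelial-to-mesenchymal transition, 26 were higher and 7 lower, with a median difference of 0.60. In the comparisons with the parent cells, which share arrays, 29 were higher and 4 lower in mt-CCs than in fl-CCs (20% and 19.3% of all genes). In fl-CCs + p53 R175H, 16 were higher and 1 lower than in fl-CCs (10.2% and 9.29% of all genes). Gremlin 1 (Grem1), a secreted BMP antagonist, was at 12.49, 12.36 and 12.42 in mt-CCs and at 6.53, 5.56 and 5.87 in fl-CCs + p53 R175H. This was the largest positive difference among called genes with all 6 arrays at 5 or more, 6.44 ± 0.18 (adjusted p = 1.09e-10). The calcium-binding protein gene Rcn1 was at 10.87, 11.19 and 11.26 in mt-CCs and between 2.37 and 2.55 in fl-CCs + p53 R175H, at least 6.11 higher by 1 of its 2 probe sets. The secreted glycoprotein gene Fstl1 was at least 5.41 higher. Nt5e (CD73), also on the list, was lower in mt-CCs, at 7.49 against 11.25, and so was N-cadherin (Cdh2), with 9.55, 9.26 and 9.60 against 10.60, 10.44 and 10.29.

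The transcription factors of this program did not behave alike. Zeb2 was at 9.88, 9.75 and 9.85 in mt-CCs, 8.51, 7.95 and 8.08 in fl-CCs + p53 R175H, 6.39, 6.86 and 6.67 in fl-CCs and 7.47, 7.73 and 7.54 in fl-CCs + EV. Twist1 was at 9.60, 9.36 and 9.29, 8.23, 8.35 and 8.41, 5.94, 6.20 and 6.16 and 4.62, 4.92 and 4.74 in the same order. For both factors mt-CCs were highest and fl-CCs + p53 R175H next, with no overlap between them. Twist1 was 1.09 ± 0.12 higher in mt-CCs (adjusted p = 1.37e-05), and Zeb2 1.64 ± 0.15 higher (adjusted p = 4.12e-06). Of the 5 probe sets of Zeb2, 3 were called higher. Against EV, the transfected cells had Twist1 higher by 3.57 (adjusted p = 3.5e-09) and Zeb2 by 0.60 (adjusted p = 0.015). Snai2 was 1.31 higher in mt-CCs, while its means in fl-CCs + p53 R175H and fl-CCs were 7.28 and 7.24. Prrx1 passed 5 in mt-CCs alone, at 7.47 on average. Zeb1 (5.71 and 5.88) and Snai1 (5.21 and 4.83) did not pass (adjusted p = 0.328 and 0.161), although Snai1 was called without mt-CCs replicate 3 (0.64, adjusted p = 0.00616). The intermediate filament gene Vim was over 13 in every array of both groups, 0.29 higher in mt-CCs by 1 of its 3 probe sets, and by 0.10 (adjusted p = 0.372) on its brightest.

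**Figure D3:**
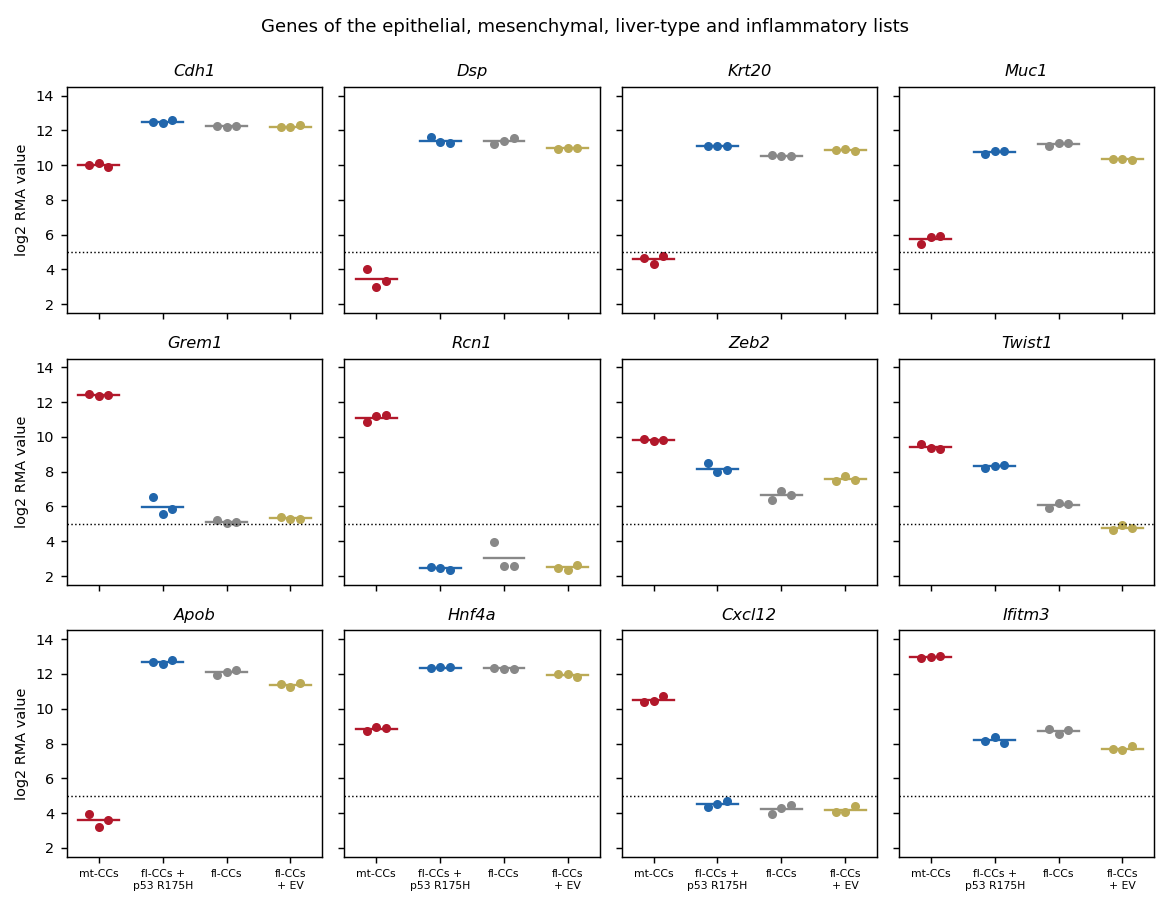
Each panel gives the log2 RMA value of 1 gene on each of the 12 arrays (points), with the group means as lines and the near-background level of 5 dotted. Cdh1, Dsp, Krt20, Muc1, Apob and Hnf4a are lower in all 3 mt-CCs arrays than in all other arrays, and Grem1, Rcn1, Cxcl12 and Ifitm3 higher, while fl-CCs + p53 R175H lie between mt-CCs and the parent cells for Zeb2 and Twist1.

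Matrix genes differed in both directions, with most called members of the collagen list higher in mt-CCs. Of 30 collagens and collagen-processing genes, 18 were higher and 3 lower (median 0.52). The called share was 70%, beside 64.5% of expressed genes. Col3a1, a fibrillar collagen, was at 9.64, 9.44 and 9.40 in mt-CCs but under 5 on the other 9 arrays, at least 4.50 higher. Col1a1 had means of 7.95 and 5.72, and the crosslinking enzyme gene Loxl3 was 3.10 higher. In contrast, Col27a1, also a fibrillar collagen, was near background in mt-CCs and at 8.07 in fl-CCs + p53 R175H. In the basement membrane and proteoglycan list, 23 of 47 genes passed as higher and 13 as lower (76.6% called). The proteoglycan versican (Vcan) was 3.13 higher and the laminin chain Lamb3 was lower, at 6.28 against 8.25. Perlecan (Hspg2), the basement membrane proteoglycan that the study follows in fibroblasts, was at 8.88, 8.81 and 8.94 in mt-CCs and at 8.66, 8.05 and 8.43 in fl-CCs + p53 R175H. The difference was 0.50 ± 0.13 (adjusted p = 0.0118), and its other probe set gave 0.24 (adjusted p = 0.293).

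Cell-matrix receptors and proteases were split. Of 23 integrins and matrix receptors, 8 were higher and 9 lower (73.9% called, beside 64.5% of expressed genes). The collagen-binding integrin chains Itga1 and Itga2 were lower in mt-CCs, with Itga1 at 5.34, 5.66 and 5.64 against 10.70, 10.38 and 10.56. Itgb6 was near background in mt-CCs, and Itgb7 was 4.83 higher. Of 34 matrix proteases and plasminogen genes, 12 were higher and 13 lower (73.5% called). The stromelysin gene Mmp10 and the collagenase gene Mmp13 were highest in the transfected cells. Mmp13 was at 9.78, 8.79 and 8.66 in fl-CCs + p53 R175H, 3.98, 4.73 and 5.03 in mt-CCs, 6.22, 7.88 and 7.42 in fl-CCs and 5.62, 4.71 and 4.92 in fl-CCs + EV, so the transfected arrays lay above the other 9. The membrane protease Mmp14 was 0.89 higher in fl-CCs + p53 R175H than in fl-CCs and 0.99 lower in mt-CCs than in fl-CCs + p53 R175H, while the gelatinase gene Mmp2 passed 5 in mt-CCs alone.

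Genes of liver-type and gut-type secretion, several of them abundant in the transfected cells, were low in mt-CCs. Of 44 measured members, 20 were lower, 4 higher and 19 near background in both groups, with a median of -0.33. The called share was 54.5%, beside 47.2% of all genes. Of the 25 members not near background in both groups, 18 were lower and 2 higher. These 2 were Anpep, at 8.70 in mt-CCs against 4.94 (a difference of 3.75), and Mttp, with 0.80. Apolipoprotein B (Apob), the scaffold of lipoprotein particles, was at 3.96, 3.19 and 3.59 in mt-CCs and at 12.69, 12.56 and 12.81 in fl-CCs + p53 R175H. The difference was at least 7.68 (adjusted p = 3.99e-12). The secreted proteins Ambp and Afp, alpha-fetoprotein, differed by -6.04 and -5.02. Afp was at 10.03, 10.02 and 10.18 in fl-CCs + p53 R175H, 9.09, 8.96 and 8.60 in fl-CCs, 6.05, 6.55 and 6.12 in fl-CCs + EV and 4.95, 4.96 and 5.27 in mt-CCs. No group overlapped another, and the transfected cells were highest. In 11 of the called members fl-CCs + p53 R175H lay above the other 9 arrays, where 15.2% of all genes had fl-CCs + p53 R175H apart in either direction. In their own comparisons, the probe sets used here gave 10 members higher and 1 lower in fl-CCs + p53 R175H than in fl-CCs (10.2% and 9.29% of all genes), and 19 higher and none lower than in fl-CCs + EV (13.1% and 12.6%). Tm4sf4, a tetraspanin-like membrane protein of liver and gut, had means of 6.39, 12.76, 11.75 and 8.11 in mt-CCs, fl-CCs + p53 R175H, fl-CCs and fl-CCs + EV, and its relative Tm4sf1 6.39 against 13.25 in the 2 mutant groups.

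Lineage factors that work in the same tissues are the endoderm transcription factors, of which 16 of 36 were lower and 9 higher (median -0.23). Hnf4a, a master regulator of hepatocyte and gut genes, was at 8.74, 8.92 and 8.91 in mt-CCs and at 12.34, 12.38 and 12.37 in fl-CCs + p53 R175H, a difference of -3.51 ± 0.08 by the probe set used and lower by all 4. Gata5 was near background in mt-CCs, at least 4.35 lower, and Foxa3 was at 4.76 against 8.76. The intestinal factor Cdx2 went the other way, with 11.28, 10.92 and 11.37 in mt-CCs and 6.93, 6.82 and 6.77 in fl-CCs + p53 R175H, and the pancreatic factor Pdx1 was 1.59 higher in mt-CCs. For Cdx2 the transfected cells were also below fl-CCs, by 0.85 (adjusted p = 0.00727).

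Promoters of the liver-type genes are shown for GTTAAT, the half-site of HNF1 factors. The half-site was found on either strand within 250 bases before the start in 13 of 40 covered members of the liver-type list and in 7.49% of all genes. In the other lists it was found in 5 of 26 endoderm factors, 4 of 29 sterol genes, 3 of 23 junction genes, 3 of 28 keratin, mucin and apical genes, 1 of 30 mesenchymal genes and 1 of 38 NFκB targets. In all, 6 motifs were searched, after the values were seen. Of the others, the full HNF1 palindrome and the HNF4-type CAAAGTCCA were in none of the 40 liver-type genes, the consensus NFκB site was in 2 of 38 NFκB targets (0.159% of all genes), and TCACNNCAC, a sterol element core, in 4 of 29 sterol genes (3.63% of all genes). The windows of Afp (chr5:90490464-90490713, plus strand), albumin (Alb, chr5:90460620-90460869, plus strand) and the fatty acid binding protein gene Fabp1 (chr6:71199629-71199878, plus strand), chosen after the matches were seen, have the half-site or its reverse complement ATTAAC in capitals.
Afp: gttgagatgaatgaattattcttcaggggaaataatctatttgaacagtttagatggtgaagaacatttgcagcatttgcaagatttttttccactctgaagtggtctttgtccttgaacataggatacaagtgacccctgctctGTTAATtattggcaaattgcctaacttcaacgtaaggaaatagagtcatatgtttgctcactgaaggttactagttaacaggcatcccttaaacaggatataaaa
Alb: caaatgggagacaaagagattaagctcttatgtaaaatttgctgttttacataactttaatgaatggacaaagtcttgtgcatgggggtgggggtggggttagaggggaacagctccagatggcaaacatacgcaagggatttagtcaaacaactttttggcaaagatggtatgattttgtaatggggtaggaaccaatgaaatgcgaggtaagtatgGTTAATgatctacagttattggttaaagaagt
Fabp1: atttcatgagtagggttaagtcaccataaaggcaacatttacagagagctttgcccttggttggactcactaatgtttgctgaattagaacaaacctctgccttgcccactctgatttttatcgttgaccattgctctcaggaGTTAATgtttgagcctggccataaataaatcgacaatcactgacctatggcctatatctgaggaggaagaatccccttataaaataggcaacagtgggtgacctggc

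Both Alb and Fabp1 were near background in the mt-CCs. Alb was at 6.66, 7.33 and 7.26 in fl-CCs + p53 R175H and 5.51, 5.39 and 5.91 in fl-CCs, a difference from mt-CCs of at least 2.08. Fabp1 was at 6.33, 7.48 and 7.31 in fl-CCs + p53 R175H, at least 2.04 above mt-CCs.

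The 6 NFκB genes named in the study's methods were all called higher in mt-CCs than in the transfected cells. NFκB is a family of transcription factors that drives inflammatory and survival genes. Cxcl12, a chemokine, was at 10.38, 10.46 and 10.71 in mt-CCs but under 5 in all 9 fl-CC-derived arrays. It was at least 5.52 higher by this probe set. Of its 3 probe sets 2 were called higher, the second with means of 8.79 and 4.78. The TNF-family ligand Tnfsf11 (RANKL) was at 7.25, 7.54 and 6.88 and near background otherwise, at least 2.22 higher. The receptor Tnfrsf9 differed by 2.32 ± 0.18, the survival gene Bcl2 by 1.19 ± 0.09 and the inhibitor Nfkbia by 0.95 ± 0.11. The chemokine Cxcl1 was at 10.80, 10.96 and 10.84 in mt-CCs and 10.21, 10.35 and 10.35 in fl-CCs + p53 R175H, with 9.72, 9.98 and 9.82 in fl-CCs and 8.71, 8.75 and 8.92 in fl-CCs + EV. By this probe set the groups of Cxcl1 did not overlap, with mt-CCs highest and the transfected cells next. Its other probe sets, both brighter, gave differences of 0.35 (adjusted p = 0.0122) and 0.24 (adjusted p = 0.163). Tnf itself was near background in both groups. The study chose these genes with its own arrays in view, so their direction is not independent evidence.

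Over the wider list of 44 direct NFκB targets, 24 were higher and 10 lower in mt-CCs (median 0.42). The monocyte attractant Ccl2 was 4.40 higher and Ccl5 at least 2.50 higher, while Ccl20, the complement factor Cfb and the regulator Nfkbiz were lower by 3.32, 3.09 and 2.78. Of the 3 probe sets of Nfkbiz 1 was called, and its brightest gave -0.19 (adjusted p = 0.118). Cfb was highest in the transfected cells, with 11.05, 11.30 and 11.41 against 10.47, 10.54 and 10.63 in fl-CCs, 8.52, 8.45 and 8.63 in fl-CCs + EV and 8.25, 7.88 and 8.35 in mt-CCs. Of the 44 targets, 13 were higher and 4 lower in fl-CCs + p53 R175H than in fl-CCs (10.2% and 9.29% of all genes). Against fl-CCs + EV, 21 were higher and 6 lower (13.1% and 12.6% of all genes). Lipocalin 2 (Lcn2), an iron-scavenging secreted protein, was at 11.03, 10.95 and 11.02 in mt-CCs, 9.92, 10.20 and 10.52 in fl-CCs + p53 R175H, 6.93, 8.15 and 8.0 in fl-CCs and 4.75, 5.32 and 5.25 in fl-CCs + EV. The mutant groups were both above the others and differed by 0.79 ± 0.28 (adjusted p = 0.0452). That call was lost without any 1 of the 6 arrays other than fl-CCs + p53 R175H replicate 3 (adjusted p from 0.0828 to 0.155). Of 49 chemokines, cytokines and colony stimulating factors, 13 were higher, 9 lower and 17 near background in both groups. The called share was 44.9%, against 47.2% of all genes.

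Interferon-stimulated and antigen presentation genes were higher in the mt-CCs, 31 of 51, with 6 lower and a median of 0.54. Of these calls, 9 had both groups near background. The antiviral membrane proteins Ifitm3 and Ifitm1 led. Ifitm3 was at 12.90, 12.98 and 13.01 in mt-CCs and 8.15, 8.40 and 8.03 in fl-CCs + p53 R175H, a difference of 4.77 ± 0.12. Ifitm1 and the guanylate-binding protein Gbp7 were near background in the transfected cells and at least 5.55 and 3.28 higher in mt-CCs. The DNA-binding protein gene Ifi202b, outside this list, was at 11.46 in mt-CCs and under 5 in all other arrays. Among the 6 lower members, Ifit3, induced by viral infection, was at 6.31, 6.26 and 6.17 against 7.65, 8.59 and 8.31, and the RNA sensor Ifih1 was lower by 1.06.

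Targets of wild-type p53 were mixed between the lines. Of 44, 21 were higher and 15 lower, with a median of 0.07 (81.8% called, beside 64.5% of expressed genes). The autophagy regulator Dram1 was at 10.50, 10.49 and 10.50 in mt-CCs and 5.56, 5.33 and 5.47 in fl-CCs + p53 R175H, a difference of 5.05 ± 0.14 (adjusted p = 9.23e-11). The ubiquitin ligase Mdm2 and the cell cycle inhibitor Cdkn1a, both core targets, were 0.77 and 1.11 higher. Cdkn1a ran from 7.09 to 7.56 in fl-CCs + p53 R175H and from 8.25 to 8.43 in mt-CCs. The fl-CCs arrays, at 7.06, 8.51 and 8.10, spanned both. Perp, a desmosomal p53 target, the death receptor Fas and the BH3-only gene Pmaip1 (Noxa) were lower in mt-CCs by 2.25, 1.78 and 1.71. Fas was highest in the transfected cells, with 6.53, 6.66 and 7.04 there and means of 4.97, 4.95 and 4.11 in mt-CCs, fl-CCs and fl-CCs + EV.

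Genes tied in the literature to gain of function of mutant p53 were not alike in the 2 mutant lines either, with 20 of 43 higher and 12 lower (median 0.26). The called share was 74.4%, beside 64.5% of expressed genes. The growth factor receptor Egfr was at 10.17, 10.13 and 10.14 in mt-CCs and 8.33, 7.87 and 7.84 in fl-CCs + p53 R175H. Its difference was 2.13 ± 0.16, with 6 of 7 probe sets higher. Pdgfrb was near background in all fl-CC-derived arrays and at 6.43, 7.57 and 7.01 in mt-CCs. The transcriptional inhibitor Id2 was lower in mt-CCs, at 9.34 against 11.79. The cystine transporter Slc7a11 was at 7.73, 8.28 and 7.64 in mt-CCs, 6.42, 5.97 and 6.13 in fl-CCs + p53 R175H, 8.43, 8.79 and 8.14 in fl-CCs and 7.79, 7.82 and 8.09 in fl-CCs + EV. It was lowest in the transfected cells, and mt-CCs overlapped both fl-CCs and the EV cells. Against fl-CCs, 6 members were higher and 15 lower in fl-CCs + p53 R175H (10.2% and 9.29% of all genes). In mt-CCs 8 were higher and 17 lower (20% and 19.3% of all genes).

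Receptors and ligands differed in both directions. The TGFβ co-receptor Tgfbr3 averaged 11.22 in mt-CCs while being near background in fl-CCs + p53 R175H, and the FGF receptors were exchanged, with Fgfr1 at 9.20, 9.34 and 9.07 in mt-CCs and 5.01, 4.91 and 4.97 in fl-CCs + p53 R175H. Fgfr2 was at 3.98, 4.15 and 3.78 and 7.75, 8.25 and 8.47. All 3 probe sets of each receptor were called, in opposite directions. Of 46 receptors of the EGF, FGF, PDGF, HGF and IGF list, 18 were higher and 16 lower. Among 74 growth factors and BMP, TGFβ and Wnt ligands and antagonists, 32 were higher and 20 lower, with Igfbp5 near background in mt-CCs and at 9.78 in fl-CCs + p53 R175H. Of 30 YAP and TEAD targets, 17 were lower and 7 higher (median -0.51). The matrix-cell protein gene Ccn2, a standard YAP target, was lower in mt-CCs by 1.32, and Tgfb2 was 2.04 higher. The lists of Hedgehog, Notch and Wnt genes (19 higher and 12 lower of 48) and of ERK and AP-1 output (15 and 10 of 37) had medians of 0.17 and 0.01. Their called shares were 64.6% and 67.6%, near the 64.5% of expressed genes. Of the receptor, growth factor and YAP lists 73.9%, 70.3% and 80% were called.

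In lipid synthesis the transfected cells often lay below all other arrays. Of 35 sterol and fatty acid synthesis genes, 18 were higher and 8 lower in mt-CCs (median 0.35). In 16 called members fl-CCs + p53 R175H lay below the other 9 arrays, where 15.2% of all genes had them apart in either direction. Lss, lanosterol synthase, was at 7.69, 7.08 and 7.13 in fl-CCs + p53 R175H, 8.64, 8.64 and 8.60 in mt-CCs, 8.67, 9.01 and 9.14 in fl-CCs and 10.11, 10.20 and 10.33 in fl-CCs + EV. The fatty acid elongase Elovl6 was at 9.78, 9.81 and 9.82 in fl-CCs + p53 R175H and 10.95, 10.98 and 10.97 in mt-CCs. The squalene epoxidase Sqle had means of 11.22, 10.62, 11.69 and 11.83 in mt-CCs, fl-CCs + p53 R175H, fl-CCs and fl-CCs + EV. For these 3 genes the transfected cells were lowest. Both mutant lines were mostly below fl-CCs in this pathway, 27 members lower and none higher in fl-CCs + p53 R175H, and 23 lower and 3 higher in mt-CCs, with the fl-CCs arrays shared. Over all genes, 9.29% were lower and 10.2% higher than fl-CCs in fl-CCs + p53 R175H, and 19.3% and 20% in mt-CCs. Against fl-CCs + EV, 31 were lower in fl-CCs + p53 R175H and none higher, beside 12.6% and 13.1% of all genes. No member of the list was near background in both mutant groups, whereas these shares include genes that were. Fatty acid synthase (Fasn) was not called, at 9.61 and 9.82, though it was lower without mt-CCs replicate 1 (-0.33, adjusted p = 0.0313).

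Of the hypoxia and stress response lists 67.6% and 66.7% were called, near the 64.5% of expressed genes. Most called members were higher in mt-CCs than in the transfected cells. Of 34 glycolysis and hypoxia genes, 17 were higher and 6 lower in mt-CCs. In 13, fl-CCs + p53 R175H lay below the other 9 arrays, beside 15.2% of all genes apart in either direction. Against fl-CCs, 8 were higher and 13 lower in mt-CCs (20% and 19.3% of all genes). In fl-CCs + p53 R175H, none was higher and 23 were lower than in fl-CCs (10.2% and 9.29%). The oxygen sensor Egln3 was at 11.34, 11.25 and 11.35 in mt-CCs and 9.62, 9.07 and 8.92 in fl-CCs + p53 R175H, and 10.87 and 11.42 on average in fl-CCs and fl-CCs + EV. The aldolase gene Aldoc was 1.83 higher in mt-CCs, and the carbonic anhydrase Car9 was lower, at 5.01 against 6.41. Of 39 genes of the unfolded protein and integrated stress response, 19 were higher and 7 lower. In this list the transfected cells were higher than fl-CCs in 6 and lower in 11 (10.2% and 9.29% of all genes). The stress factors Ddit3 (CHOP) and Trib3 were 1.98 and 1.75 higher in mt-CCs, with mt-CCs above and fl-CCs + p53 R175H below all other arrays. Of 48 respiratory chain genes, 22 were higher and 7 lower, though only 1 in each direction passed a difference of 1. The called share was 60.4%, not above that of expressed genes. Of 34 cytosolic ribosomal protein genes 11 were higher and 3 lower, 41.2% called against 47.2% of all genes. For 32 apoptosis regulators of the BCL2 and IAP families the counts were 11 and 12 (71.9% called). Among 53 NRF2, glutathione and xenobiotic genes, 22 were higher and 16 lower, with the retinal dehydrogenase Aldh1a1 at least 4.62 lower in mt-CCs and the transferase Gstm2 2.15 higher.

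Mitotic genes were higher in the mt-CCs than in the transfected cells. Of 43 genes of mitosis and G2/M, 35 were higher and 2 lower (median 0.85), whereas of 41 genes of DNA replication and S phase 9 were higher and 6 lower (median 0.21). The called shares were 86% and 36.6%, against 64.5% of expressed genes. The kinetochore protein Cenpf was at 10.85, 10.88 and 10.70 in mt-CCs and 9.01, 8.92 and 9.22 in fl-CCs + p53 R175H, and the spindle gene Hmmr at 9.23, 9.20 and 8.84 and 7.40, 7.55 and 7.41. Birc5 (survivin), which acts in chromosome segregation, was 1.63 ± 0.18 higher. Ect2 and Bub3 were the 2 lower members, by 0.66 and 0.40, and the mitotic kinase Plk1 did not pass (adjusted p = 0.948). Relative to fl-CCs, 33 of the 43 were lower and none higher in fl-CCs + p53 R175H (9.29% and 10.2% of all genes). Relative to fl-CCs + EV 1 was lower and 10 higher (12.6% and 13.1% of all genes). None of the 43 was near background in both mutant groups, whereas these shares include genes that were. The mean level of the list ran from 9.15 to 9.69 across the 3 fl-CCs arrays, a wider range than the 8.65 to 8.79 of fl-CCs + p53 R175H, 8.51 to 8.64 of fl-CCs + EV and 9.45 to 9.60 of mt-CCs. In all 4 groups cells were grown to the same confluency by the protocol. The share of dividing cells was not measured.

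Some single genes set the transfected cells far from the other 9 arrays. Peg3, a paternally expressed zinc finger gene, was at 9.75, 9.70 and 9.68 in fl-CCs + p53 R175H, 6.29, 6.93 and 6.61 in mt-CCs, 5.59, 5.62 and 5.60 in fl-CCs and 2.63, 2.62 and 2.45 in fl-CCs + EV. Its neighbor Usp29, which shares the promoter region, was at 8.50, 8.53 and 8.42, 5.39, 6.07 and 5.40, 5.75, 5.36 and 5.60 and 5.05, 4.78 and 4.63. For both, the transfected cells lay above the other groups and EV cells below them. Rnf144b, a ubiquitin ligase, Cyp21a1, Cdyl2 and Mageh1 were likewise highest in the transfected cells, with differences of -2.94, -3.05, -2.19 and -1.93. In the other direction, the glypican gene Gpc6 had a mean of 5.02 in fl-CCs + p53 R175H and between 7.84 and 8.59 in the other arrays, and the cytoskeletal linker Epb41l4a was at 5.60, 6.62 and 6.41 in fl-CCs + p53 R175H and between 9.10 and 10.04 in the other arrays. The aminotransferase Bcat1 and the water channels Aqp5 and Aqp1 were also lowest in the transfected cells, 2.21, 2.14 and 1.89 below mt-CCs. These genes were picked for this gap, which is given as a description.

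**Figure D4:**
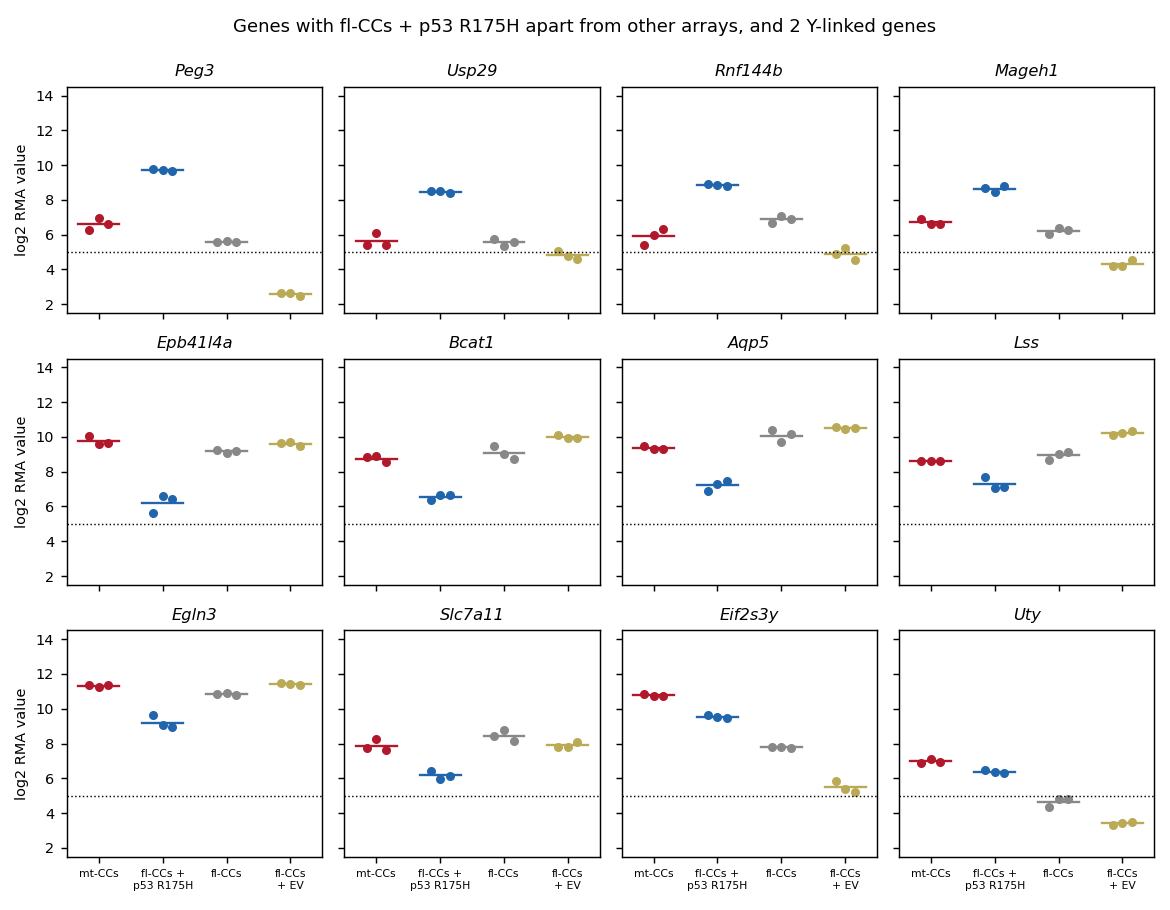
Each panel gives the log2 RMA value of 1 gene on each of the 12 arrays (points), with group means as lines and the near-background level of 5 dotted. In the first 10 panels the 3 arrays of fl-CCs + p53 R175H lie above (Peg3, Usp29, Rnf144b, Mageh1) or below (Epb41l4a to Slc7a11) all others, and the Y-linked genes Eif2s3y and Uty fall from mt-CCs over fl-CCs + p53 R175H and fl-CCs to fl-CCs + EV.

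Imprinted genes, an X-linked gene cluster and Hox genes were examined, beside the 47.2% of all genes that were called. Of 33 imprinted genes, 10 were higher and 11 lower, and 13 were near background in both groups. Sgce, Grb10 and Peg10 were measured in mt-CCs, at 9.01, 8.82 and 7.31 on average, and near background in all other arrays. Plagl1 was at 4.56 in mt-CCs, 7.43 in fl-CCs + p53 R175H and 9.99 in fl-CCs + EV. Of 17 Armcx, Bex and Tceal genes, a cluster on the X chromosome, 8 were higher in mt-CCs and none lower. Armcx2 was at 10.49, 10.91 and 10.82 in mt-CCs and between 2.31 and 2.66 in fl-CCs + p53 R175H, at least 5.74 higher. The 33 Hox genes were mostly silent, 29 near background in both groups.

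Y-linked genes were measured in both mutant lines, and at different levels. Eif2s3y was at 10.83, 10.74 and 10.76 in mt-CCs, 9.66, 9.50 and 9.49 in fl-CCs + p53 R175H, 7.80, 7.81 and 7.76 in fl-CCs and 5.85, 5.39 and 5.23 in fl-CCs + EV. Kdm5d had means of 8.19, 7.62, 6.34 and 4.50 in the same order, and Uty 6.99, 6.37, 4.65 and 3.43. The order was the same for all 3 genes, and the differences between the mutant lines were 1.22, 0.56 and 0.62, each called. The call of Kdm5d was lost without any 1 of the 6 arrays (adjusted p from 0.0537 to 0.156). Xist was near background on every array. The fl-CCs, EV and R175H cells thus differed in Y-linked transcripts although they derive from 1 line. Whether the share of cells with these transcripts or the level per cell differed cannot be told apart in bulk RNA. Of 3 genes known to vary among inbred strains, Glo1 was 1.26 higher in mt-CCs and Nnt was lower, at 12.16 against 13.16. Wdfy1 was 0.46 higher by 1 of its 5 probe sets, and its brightest gave -0.068 (adjusted p = 0.721).

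Markers of other cell types were examined for both groups. Of 16 fibroblast markers, 6 were higher in mt-CCs and 1 lower, 10 were near background in both groups, and the mean level of the list ran from 5.06 to 5.12 in mt-CCs and from 4.08 to 4.12 in fl-CCs + p53 R175H. The higher members included Col3a1, Col1a1 and Pdgfrb, while Fap, Pdpn and Postn were near background on all arrays. Of 7 acinar and 7 endocrine markers none was called, and 10 of 15 leukocyte and 10 of 12 endothelial markers were near background in both groups. The ductal markers, such as Krt19 over 13 on every array, were present in both lines, with 7 of 9 lower and 2 higher in mt-CCs. The part of other cells in the mesenchymal differences was not tested.

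By chromosome, the differences were unevenly spread. Over 8764 genes with a mean of at least 7 in 1 of the mutant groups or both, the median difference was 0.03, with 3210 higher and 3115 lower. On chromosome 10, 322 of 443 genes were higher and 49 lower (median 0.56), and on chromosome 15, 251 of 365 were higher and 47 lower (median 0.47). Chromosomes 14 and 11 had medians of 0.35 and 0.33. In the other direction, chromosome 7 had 344 of 618 genes lower and 126 higher (median -0.39), and chromosome 3 a median of -0.28. Each line's own comparison with fl-CCs, with those arrays shared, gave chromosome 10 a median of 0.37 in mt-CCs and -0.20 in fl-CCs + p53 R175H. For chromosome 15 the values were 0.22 and -0.22, and for chromosome 7 they were -0.29 and 0.04. On the X chromosome both lines were above fl-CCs, by 0.17 in mt-CCs and 0.32 in fl-CCs + p53 R175H. Copy number was not measured on these arrays.

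**Figure D5:**
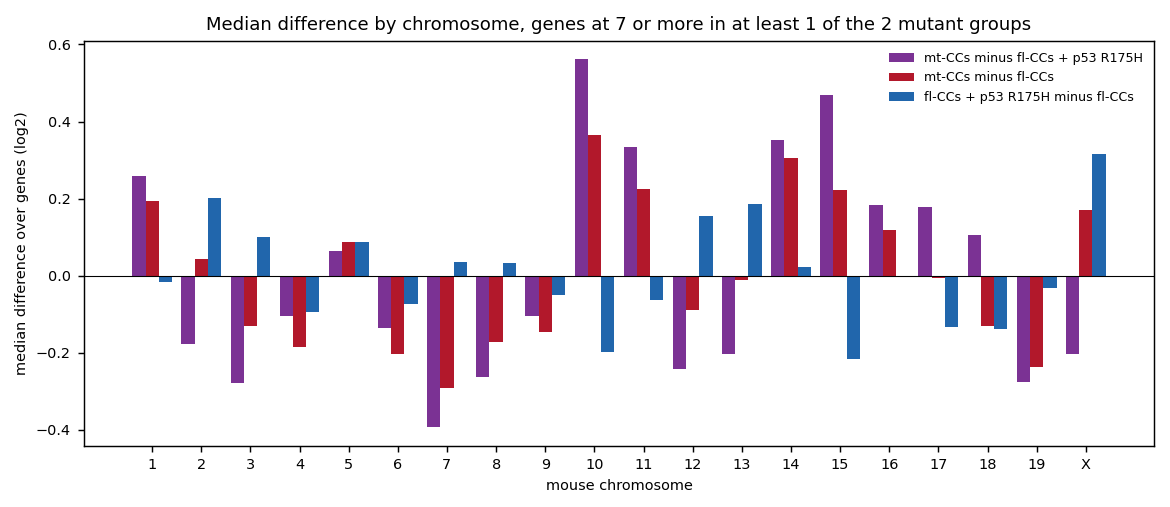
Bars give, for each mouse chromosome (Y left out), the median log2 difference over genes at 7 or more in at least 1 of the 2 mutant groups, for mt-CCs minus fl-CCs + p53 R175H (purple) and for each of these groups minus fl-CCs (red and blue). Chromosomes 10 and 15 have the highest purple bars (0.56 and 0.47) and chromosome 7 the lowest (-0.39).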

How the data were processed

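RNA of 4 groups of cells, with 3 arrays each, was hybridised to Affymetrix mouse genome arrays. The deposited table holds log2 expression values, which the authors made with RMA (background correction, quantile normalization and probe summary in one step, per the labels), with no version given in the sources used here. Quantile normalization gives every array the same distribution, so a change shared by most genes would not be seen. The 64 control probe sets were left out, and 45037 were tested. Of these, 34945 carried 1 gene symbol in the platform annotation, 932 several and 9160 none, and only the first kind was named. limma 3.58.1 in R 4.3.3 (lmFit, eBayes, group means over all 12 arrays, no fold limit) gave differences, standard errors and Benjamini-Hochberg adjusted p-values over all probe sets, with a threshold of 0.05. For each gene the values shown are those of the probe set whose adjusted p was lowest, a choice that favors called probe sets. A difference is given as "at least" where all 3 arrays of 1 group lay under 5, as the other group's mean minus 5.

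Groups were taken from the array titles. No 2 arrays held the same values. The 33 gene lists and 6 marker lists name 1295 genes, of which 1199 were measured, and lists, members and tests were chosen with earlier results of these data known. Named genes were the 8 most higher and 8 most lower called genes with all 6 arrays at 5 or more, the 6 brightest in each direction whose other group was under 5, the 3 most higher and 3 most lower of each list, the NFκB genes of the study's methods with Hspg2 and Tnf, the 6 farthest above and 6 farthest below for fl-CCs + p53 R175H, 10 with the narrowest intervals, and sex-linked genes. Chosen after their values were seen were Alb, Ccn2, Cdh1, Cdh2, Cdkn1a, Col1a1, Epcam, Fabp1, Fap, Fasn, Krt7, Krt8, Krt18, Krt19, Lcn2, Mdm2, Pdpn, Plk1, Postn, Prrx1, Snai1, Snai2, Spint2, Sqle, Twist1, Vim, Zeb1 and Zeb2. Promoter windows came from RefSeq on GRCm38.p6. The scripts were tested on simulated data. Alternatives were the 6 arrays alone, a replicate block, leaving out each array, other variance settings, filters and normalizations, a fold limit and the brightest probe set.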

Additional observations from a re-analysis of the deposited data

How the results depend on the processing

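Where calls also had to reach a difference of 1, 3870 probe sets (1899 higher, 1971 lower) and 2361 genes (1131 higher, 1230 lower) passed, mt-CCs stood apart in 3290 and fl-CCs + p53 R175H in 1067 of these probe sets. Without each of the 6 arrays in turn, 13029 to 13615 probe sets (6552 to 6869 higher, 6447 to 6746 lower) and 7664 to 7962 genes (3839 to 4057 higher, 3759 to 3957 lower) were called, mt-CCs stood apart in 8514 to 9679, fl-CCs + p53 R175H in 3621 to 4414, and 8069 to 8736 probe sets were close. Between the 2 mutant groups, the deviations of arrays with the same replicate number from their group means correlated at -0.00478, -0.00944 and 0.0582. Arrays with different numbers gave -0.056 to 0.0577. Whether arrays of the same number were processed together was not tested. With the number as a replicate block, 14367 probe sets and 8310 genes were called, and of 236 named genes Kdm5d alone lost its call (adjusted p = 0.0576). With only the 6 arrays of the comparison, 13603 probe sets and 7919 genes were called, and Krt18 lost its call (adjusted p = 0.0652). The probe set with the highest mean gave 7070 genes, with 9 named genes losing their call and 4 turning direction, Adamts4 (0.16, adjusted p = 0.389), Shh (0.21, adjusted p = 0.239), Rps20 (-0.19, adjusted p = 0.0644) and Wdfy1 (-0.068, adjusted p = 0.721). The cause was not tested. Of 117 list values (higher, lower and median of 39 lists), 0 to 29 moved, counts by over 1.5 times or medians beyond the spread between arrays, under settings other than the fold limit, and 61 under it.

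Signal over background limits 6064 genes, near background in both groups, for which a difference was measured poorly. The 3 arrays of 1 line per group limit every statement to these lines.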
